A study of Mus musculus with 72 samples.

Results

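The AMPA and kainate receptor subunits are described here as 9 genes, taken by name: Gria1, Gria2, Gria3 and Gria4, which code for the AMPA receptor subunits GluA1 to GluA4, and Grik1, Grik2, Grik3, Grik4 and Grik5, which code for the kainate receptor subunits GluK1 to GluK5. All 9 were found among the 53715 gene rows of the count tables, and all 9 passed the filter on low counts in every brain comparison. The study examined mice lacking Gnb5, which codes for Gβ5, the atypical G protein beta subunit that pairs with the R7 family of regulators of G protein signalling. RNA was sequenced from whole cerebellum, from the hippocampi and from the whole cerebral cortex of 6 wild-type (Gnb5+/+) and 6 knockout (Gnb5-/-) males, so that the 6 brain groups hold 6 mice each and the 3 regions of a genotype come from the same mice by the mouse numbers in the sample titles. All mice were 18 weeks old and had free access to food and water, and litters holding knockout pups were given wet powdered food around weaning. The knockout allele is a germline deletion of exon 3 made in the C57BL/6J inbred background, so the deletion is carried by every cell type and throughout life. Atria and ventricles of wild-type, heterozygous and knockout mice were also sequenced and serve below only to show the level of the subunits outside the brain.

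AMPA and kainate receptors are tetrameric cation channels opened by glutamate. AMPA receptors carry most fast excitatory transmission in the brain, and the presence of an edited GluA2 subunit makes them nearly impermeable to calcium. Kainate receptors act at fewer synapses and also modulate transmitter release. GluK1 to GluK3 can form channels on their own, whereas GluK4 and GluK5 reach the membrane only together with one of these.

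The part of the gene that bears on calcium permeability is shown for every member. The printed coding sequence, 54 bases of each member on GRCm38 with its strand, ends just after the pore loop codon that is recoded by RNA editing in Gria2, Grik1 and Grik2. That codon is in capitals and stands in a single coding exon in each gene. It reads as glutamine in the genome of all 9 members, as CAG in 8 of them and as CAA in Gria4. Transcripts are the longest coding ones of GENCODE M21.
Gria1 (chr11:57243046-57243099, plus strand, exon 11 of 16): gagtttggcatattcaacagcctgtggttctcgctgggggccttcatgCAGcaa
Gria2 (chr3:80706908-80706961, minus strand, exon 11 of 16): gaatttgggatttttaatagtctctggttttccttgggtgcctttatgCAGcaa
Gria3 (chrX:41610217-41610270, plus strand, exon 11 of 16): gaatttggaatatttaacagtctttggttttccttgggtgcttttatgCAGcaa
Gria4 (chr9:4464134-4464187, minus strand, exon 12 of 17): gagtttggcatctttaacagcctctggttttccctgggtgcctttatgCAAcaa
Grik1 (chr16:87940539-87940592, minus strand, exon 13 of 18): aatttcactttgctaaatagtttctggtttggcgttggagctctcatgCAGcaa
Grik2 (chr10:49244326-49244379, minus strand, exon 12 of 16): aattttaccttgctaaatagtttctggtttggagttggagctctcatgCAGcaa
Grik3 (chr4:125691159-125691212, plus strand, exon 12 of 16): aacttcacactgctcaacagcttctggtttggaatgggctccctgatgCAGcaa
Grik4 (chr9:42547620-42547673, minus strand, exon 14 of 19): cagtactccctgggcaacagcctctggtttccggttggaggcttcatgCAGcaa
Grik5 (chr7:25022494-25022547, minus strand, exon 15 of 20): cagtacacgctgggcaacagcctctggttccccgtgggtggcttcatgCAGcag

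Among the 6 pairs of AMPA subunits the windows differ at 5 to 12 bases, among the 10 kainate pairs at 3 to 22, and among the 20 pairs across the families at 16 to 23. Over the whole coding sequence, identity was 67.6 to 71.8% within the AMPA family, 55.0 to 72.1% within the kainate family and 52.8 to 58.4% between them. The longest identical stretch of any pair was 41 bases, shared by Gria2 and Gria4. A further 22 codons downstream of the capital codon begins a run of 19 residues that all 9 proteins share without a break. Counts per gene do not separate edited from unedited reads, nor the flip and flop splice forms of the AMPA subunits, so none of the values below bears on either.

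The members lie on 8 chromosomes. Gria1 spans chr11:57011387-57330244, Gria2 chr3:80681450-80802835, Gria3 chrX:41400854-41678601 and Gria4 chr9:4417896-4796234. Grik1 spans chr16:87895900-88290265, Grik2 chr10:49094833-49788766, Grik3 chr4:125490700-125714173, Grik4 chr9:42518135-42944493 and Grik5 chr7:25009849-25072346. Gria4 and Grik4 share chromosome 9 with the deleted gene, at 70.51 and 32.36 Mb from it. The exons of no member overlap exons of a gene annotated on the other strand. Those of Gria2, Gria3, Gria4 and Grik4 each overlap 1 annotated gene on their own strand. Genes that lie within introns were not counted.

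The genotype labels were checked first on Gnb5 itself. In cerebellum its level ran from 134 to 156 CPM (read counts scaled to a common library size with TMM factors) in wild type and from 18.5 to 22.3 in the knockout, in hippocampus from 97.1 to 110.1 and from 12.1 to 14.4, and in cortex from 124 to 147 and from 13.6 to 19.6. The fall was 7.18-fold, 7.75-fold and 8.498-fold (edgeR quasi-likelihood test, adjusted p = 4.23e-11, 2.21e-14 and 4.57e-09).

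The 36 brain libraries held 29204390 to 48807435 reads counted on genes, with a median of 42339164. Marker lists for the regions followed the labels: in wild type, the summed granule cell markers reached 3509 to 3848 CPM in cerebellum and at most 34.8 elsewhere, and the cortical libraries also held striatal projection neuron markers at 141 to 346 CPM. In the share of reads that fell in no gene, 3 knockout libraries stood apart: knockout cerebellum replicate 2 at 8.02%, knockout cortex replicate 3 at 6.86% and knockout cortex replicate 5 at 8.32%, against 11.7 to 16.97% in the other 33. The members were low in them. In knockout cerebellum replicate 2 all 9 members were the lowest of their group and below every wild-type library, at 0.275 to 0.769 times the wild-type median. In knockout cortex replicate 3, 8 members lay below every wild-type library, and in replicate 5 this held for 7. Their lowest ratios were 0.138 and 0.384. Marker lists moved in the same libraries: the interneuron list stood at 2600.1 CPM in knockout cerebellum replicate 2 (wild type 1207 to 1291) and at 1827 in knockout cortex replicate 3 (wild type 761 to 946), the choroid plexus list at 830 CPM in that cerebellar library (wild type 3.20 to 7.20), and the astrocyte list at 329 (481 to 618) and 193 (288 to 376). Most other lists also left the wild-type range in the cerebellar library, such as oligodendrocytes at 4363 (2184 to 3085). The Purkinje cell list stood at 4149 there (2896 to 3171) and at 435 in knockout cortex replicate 3 (153 to 171). In knockout cortex replicate 5 the interneuron list stood at 1058 (761 to 946), with astrocytes within the wild-type range at 330. No marker gene was called between the genotypes by edgeR. Fold changes of the subunits between genotypes in cerebellum and cortex are therefore given with and without these libraries. In bulk tissue, fewer cells of a type and less RNA per cell cannot be told apart.

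**Figure D1:**
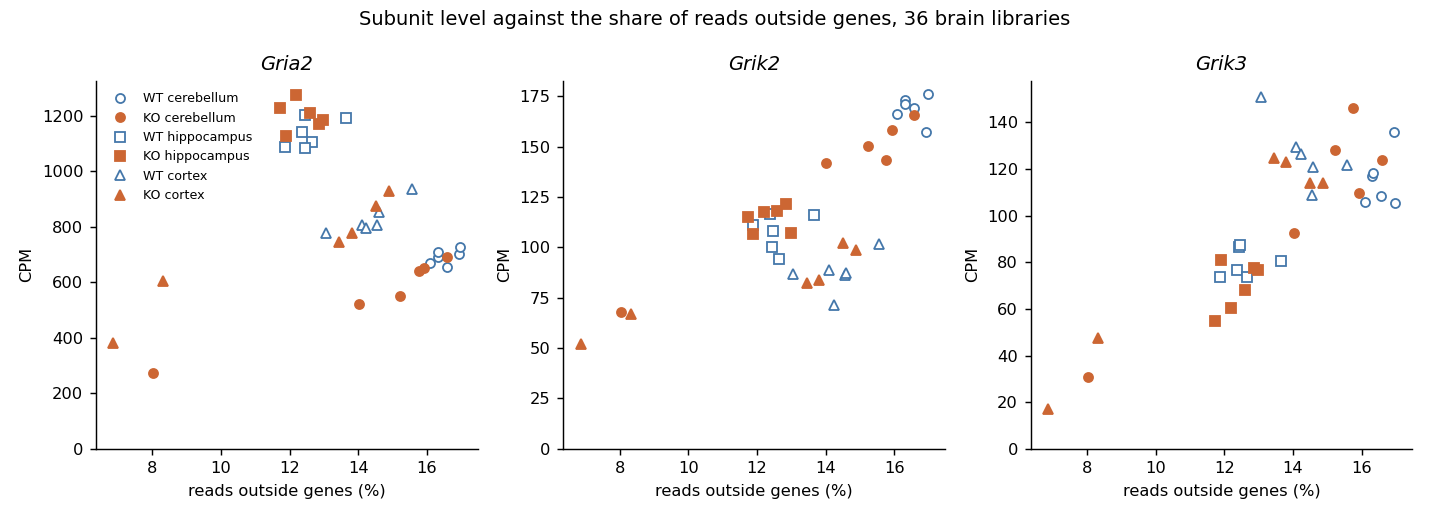
Each point is one of the 36 brain libraries, with the percent of reads that fell in no gene on the horizontal axis and the CPM of Gria2, Grik2 or Grik3 on the vertical axis. The 3 libraries under 10% lie apart on the left, at 6.86, 8.02 and 8.32%, and hold the lowest Grik3 values, down to 17.1 CPM.

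The first question is how the subunits are spread over the 3 regions of the wild-type brain. Gria4, Grik1 and Grik2 were highest in cerebellum, Gria1, Gria2 and Grik4 in hippocampus and Gria3 in cortex. Grik5 was about level in hippocampus and cortex and low in cerebellum, and Grik3 had its lowest values in hippocampus. Of the 9 members, 7 differed between cerebellum and cortex (4 higher and 3 lower in cerebellum), 8 between cerebellum and hippocampus (3 higher and 5 lower) and 5 between hippocampus and cortex (3 higher and 2 lower in hippocampus). Of all 19388 genes tested, 63.1%, 61.8% and 27.2% differed in these comparisons, so the counts of members lie near or somewhat above the background. By direction, 30% of all genes were higher and 33.1% lower in cerebellum than in cortex, 29.7% and 32.1% in cerebellum than in hippocampus, and 13% and 14.2% in hippocampus than in cortex. The median log2 fold change was -0.14, -0.69 and -0.00 over the members, against -0.03, -0.02 and -0.01 over all genes. The 3 comparisons share libraries and are not independent.

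Gria1, whose GluA1 subunit enters synapses during hippocampal potentiation, was highest in hippocampus. It read 1315, 1371 and 1490.0 CPM (lowest, median and highest of 6 mice) in wild-type hippocampus, 573, 639 and 705 in cerebellum and 397, 424 and 483 in cortex. The 3 regions did not overlap. Hippocampus exceeded cortex 3.18-fold (log2 fold change 1.67, SE 0.12, adjusted p = 8.27e-11) and cerebellum exceeded cortex 1.48-fold (adjusted p = 0.000118), both by edgeR with the mouse as a block, as for every region test here.

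Gria4 had the widest regional range of the AMPA subunits. GluA4 is known from cerebellar granule cells, Bergmann glia and fast-spiking interneurons. Its gene read 637, 692 and 754 CPM in wild-type cerebellum, 75.3, 83.3 and 87.8 in hippocampus and 122, 127 and 142 in cortex. Cerebellum exceeded hippocampus 8.30-fold (log2 fold change 3.05, SE 0.14, adjusted p = 1.23e-15) and cortex 5.20-fold (adjusted p = 8.89e-14), and hippocampus was 1.60-fold below cortex (adjusted p = 0.000196). No library of one region reached the range of another.

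Gria2, the gene of the subunit that limits calcium entry, varied least among the AMPA members between cerebellum and cortex. It read 655, 697 and 726 CPM in wild-type cerebellum, 1083, 1124 and 1203 in hippocampus and 775, 805 and 934 in cortex. Hippocampus stood 1.64-fold above cerebellum (adjusted p = 0.000162) and 1.36-fold above cortex (adjusted p = 0.0247). Cerebellum lay below cortex in 6 of 6 mice without overlap, yet the difference did not pass the test (log2 fold change -0.27, 95% interval -0.57 to 0.03, adjusted p = 0.110). The spread in these tests is shared with the knockout libraries, and without the 3 libraries that stood apart the same difference had an adjusted p of 1.57e-05. The hippocampus to cortex difference of Gria2 in turn lost its call without wild-type replicate 1, 2, 3 or 6 (adjusted p = 0.0673 to 0.0881) and with no filter on low counts (adjusted p = 0.0503).

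Gria3, an X-linked AMPA subunit gene, was the only AMPA member with its highest level in cortex. It read 152, 157 and 187 CPM in wild-type cerebellum, 244, 263 and 278 in hippocampus and 291, 299 and 328 in cortex. Cerebellum was 1.88-fold below cortex (adjusted p = 9.11e-12) and 1.62-fold below hippocampus (adjusted p = 1.25e-09). Hippocampus was below cortex without overlap (log2 fold change -0.22, adjusted p = 0.0120), a call lost without wild-type replicate 3 (adjusted p = 0.0574) and with no filter on low counts (adjusted p = 0.0957).

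Among the kainate genes, Grik1 and Grik2, which code for channel-forming subunits, were highest in cerebellum. Grik1 was low everywhere, at 26.9, 29.6 and 33.3 CPM in wild-type cerebellum, 13.9, 16.1 and 18.7 in hippocampus and 16.1, 17.9 and 19.2 in cortex. The cerebellar level was 1.64-fold that of cortex (adjusted p = 9.92e-07) and 1.83-fold that of hippocampus (adjusted p = 4.44e-08), whereas hippocampus and cortex overlapped (log2 fold change -0.16, interval -0.36 to 0.05). Grik2 read 157, 170.2 and 176 CPM in cerebellum, 94.3, 109.7 and 117 in hippocampus and 71.3, 87.1 and 102 in cortex. Cerebellum exceeded cortex 1.93-fold (adjusted p = 7.96e-07) and hippocampus 1.57-fold (adjusted p = 0.000112). Hippocampus was above cortex in 6 of 6 mice with overlapping ranges (log2 fold change 0.30, interval 0.03 to 0.56, adjusted p = 0.0983), and this difference passed without the 3 libraries that stood apart (adjusted p = 5.17e-05).

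Grik3, the third channel-forming subunit gene, was the only member with no regional difference past the test in the fit of all libraries. It read 105, 113 and 136 CPM in wild-type cerebellum, 73.7, 78.8 and 87.6 in hippocampus and 109, 124 and 151 in cortex. The hippocampal range lay below the others. With all libraries neither difference passed (hippocampus against cortex -0.67, interval -1.30 to -0.05, adjusted p = 0.110; cerebellum against hippocampus 0.53, interval -0.10 to 1.16, adjusted p = 0.135). Without the 3 libraries that stood apart both passed with the same fold changes (adjusted p = 2.32e-06 and 2.23e-05). Cerebellum and cortex overlapped (-0.14, interval -0.77 to 0.48).

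The accessory kainate genes differed from each other. Grik4, whose GluK4 subunit is known from the mossy fibre synapses of hippocampal CA3, read 75.2, 78.2 and 86.2 CPM in wild-type hippocampus, 16.5, 19.1 and 21.3 in cerebellum and 21.5, 24.0 and 28.0 in cortex. Hippocampus exceeded cortex 3.24-fold (log2 fold change 1.70, SE 0.16, adjusted p = 1.20e-08) and cerebellum 4.18-fold (adjusted p = 5.84e-11). The step from cerebellum to cortex (-0.37, SE 0.16, adjusted p = 0.0453) was lost under DESeq2 (adjusted p = 0.0659), with RLE factors (0.0604), with no filter on low counts (0.101), without knockout replicate 1, 4 or 6 and without any one of the 6 wild-type mice (0.0502 to 0.134). Grik5 read 231, 245 and 259 CPM in hippocampus and 225, 239.6 and 272 in cortex, with no difference detected (-0.00, interval -0.19 to 0.18), against 68.1, 74.8 and 81.7 in cerebellum. Cerebellum was 3.28-fold below cortex (log2 fold change -1.71, SE 0.09, adjusted p = 6.55e-14) and 3.27-fold below hippocampus (adjusted p = 6.48e-14).

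**Figure D2:**
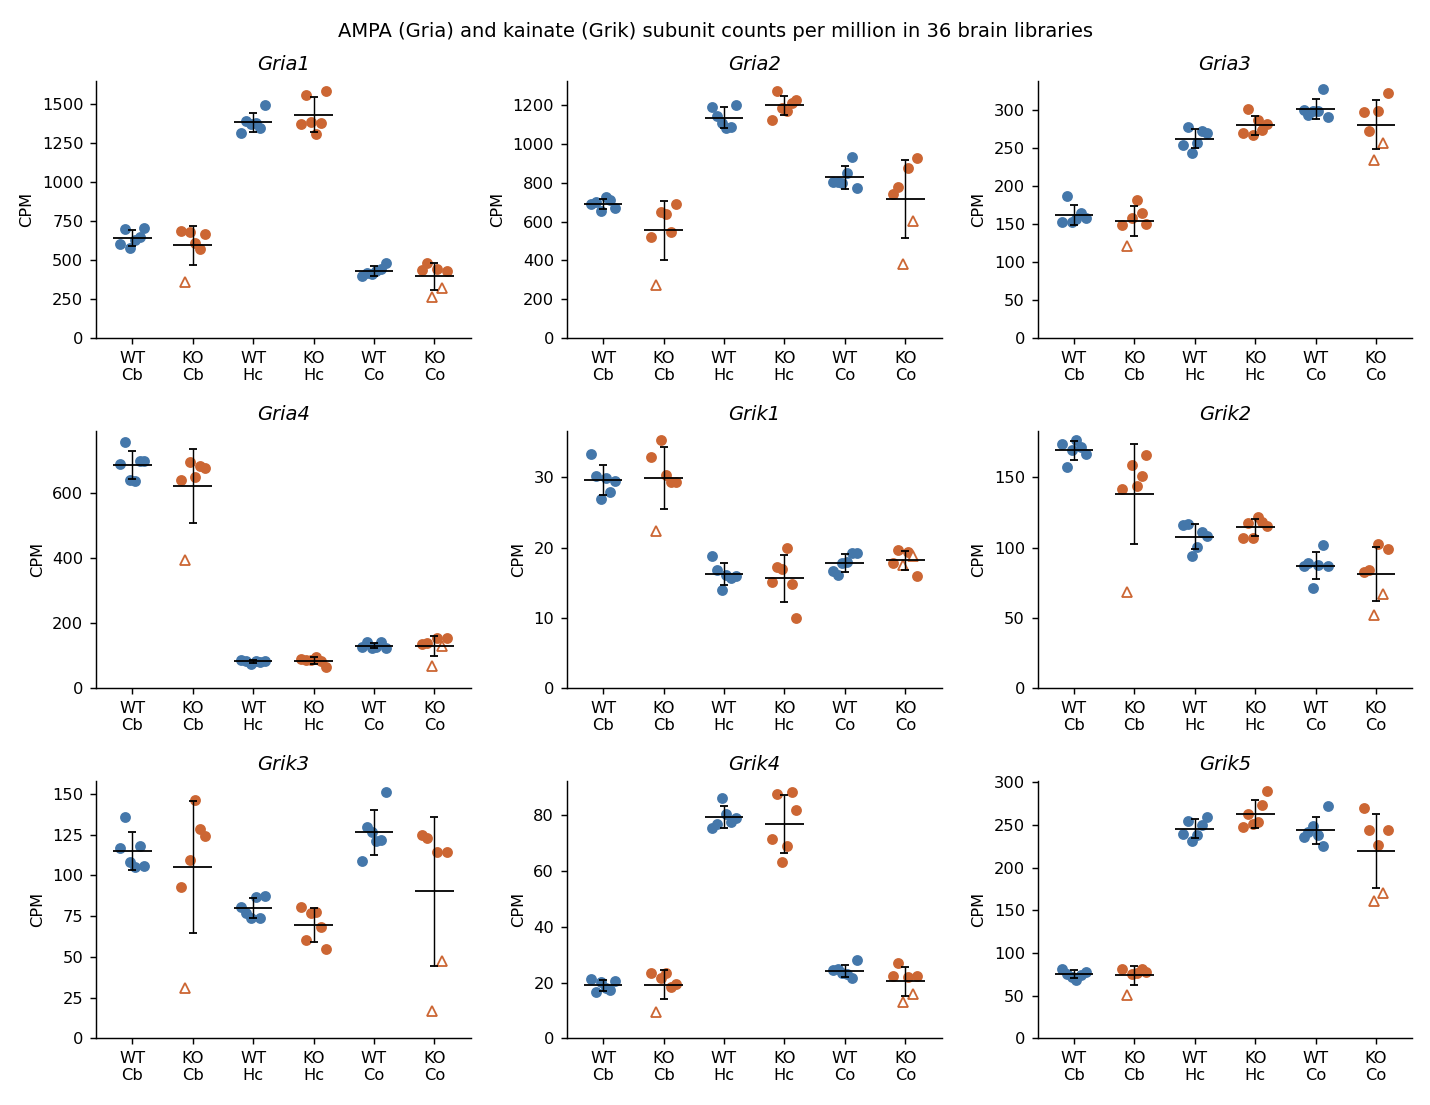
CPM of each member in every mouse of the 6 brain groups, with bars at the mean and error bars of 1 SD (n = 6) and open triangles for the 3 knockout libraries with under 10% of reads outside genes. Gria4 separates cerebellum (637 to 754 CPM in wild type) from the other regions, Grik4 separates hippocampus (75.2 to 86.2), and the lowest knockout points of most members in cerebellum and cortex are open triangles.

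**Figure D3:**
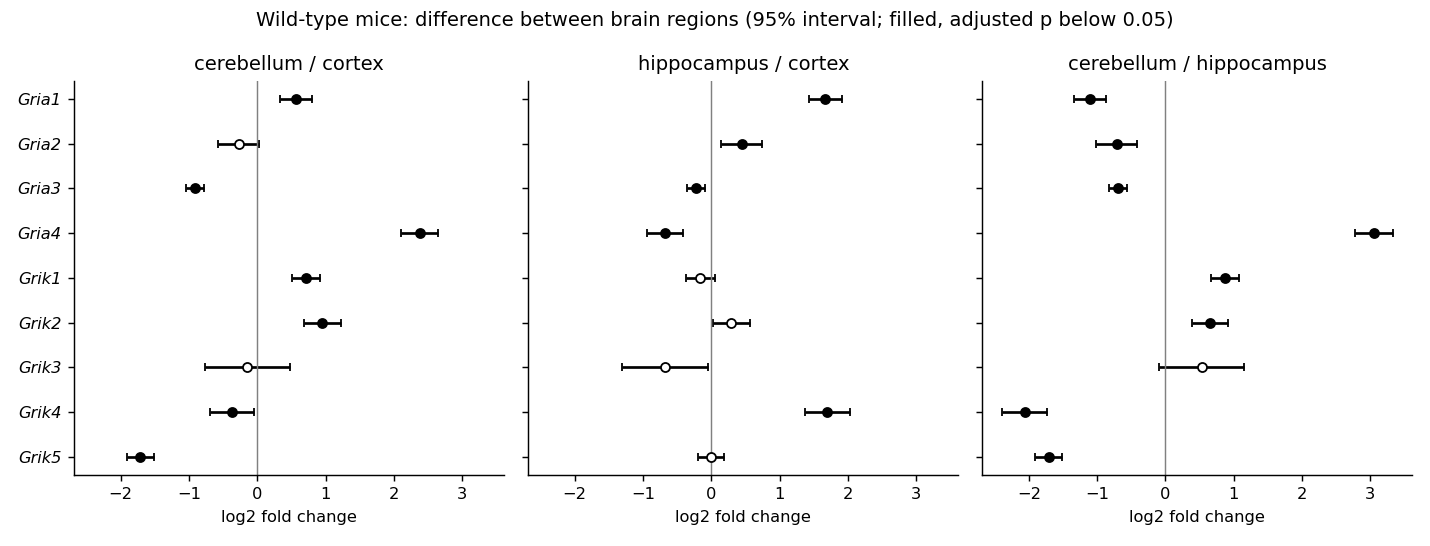
Log2 fold change between regions in wild type for each member, with 95% intervals from the edgeR fit and filled symbols where adjusted p was under 0.05. Values run from -2.06 (Grik4, cerebellum against hippocampus) to 3.05 (Gria4, same comparison), and the Grik3 intervals are the widest.

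Levels of different genes were compared per length, as RPKM (CPM divided by the kilobases of merged exons of the gene). In wild-type cerebellum Gria4 (109 ± 6.88 RPKM, SD, n = 6) and Gria1 (106 ± 8.51) were about level and together made most of the AMPA family sum of 276 ± 15.8. Their shares were 39.4% and 38.5%, with Gria2 at 16.2% and Gria3 at 5.95%. In hippocampus Gria1 (228 ± 9.87 RPKM) alone made 66.9% of a sum of 341 ± 12.3, and Gria4 was down to 3.84%. In cortex the sum was 176 ± 7.56, and Gria1 (40.5%), Gria2 (30.3%), Gria3 (17.4%) and Gria4 (11.8%) were more evenly spread. The order of Gria1 and Gria2 in cortex depends on the length used: with the longest transcript of each gene Gria2 came first, at 79.8 against 77.5 RPKM. The shares moved with that length as well, such as Gria1 in hippocampus to 58.7% of the summed group means.

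The kainate family sum was 47.7 ± 1.76 RPKM in wild-type cerebellum, 80.2 ± 2.498 in hippocampus and 74.5 ± 4.65 in cortex, below the AMPA sum in each region. Grik5 led in all 3, with 30.4% in cerebellum, 59.2% in hippocampus and 63.2% in cortex. In cerebellum Grik3 (26.9%) and Grik2 (26.8%) came close behind and could not be ordered. In hippocampus Grik4 was next with 16.6%, in cortex Grik3 with 18.9%. Grik1 held 9.23%, 3.00% and 3.57%. With the longest transcript of each gene the lower ranks moved. In cerebellum Grik2 then came to 29.6% of the summed group means, close to Grik5 at 30.5%, and Grik3 to 21.2%. Grik2 also passed Grik3 in hippocampus, and Grik1 passed Grik4 in cortex. These shares are descriptions of the family sums and were not tested.

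**Figure D4:**
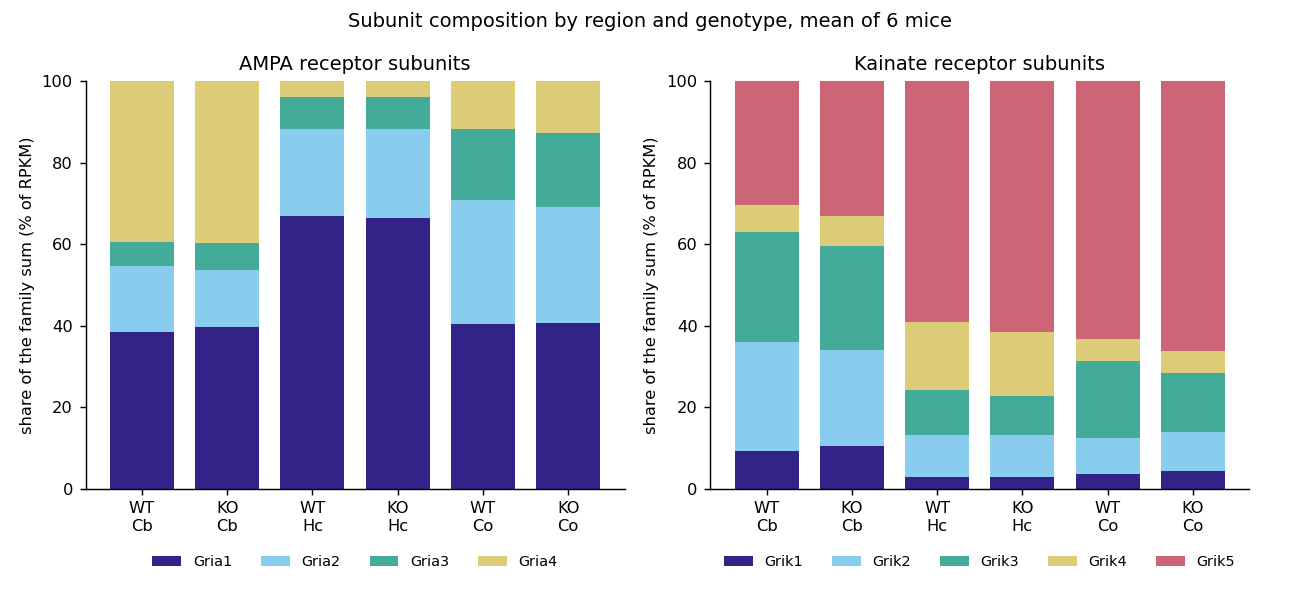
Mean share of each subunit gene in the summed RPKM of its family, AMPA genes and kainate genes apart, for the 6 brain groups (6 mice each). Gria4 goes from 39.4% of the AMPA sum in wild-type cerebellum to 3.84% in hippocampus, and Grik5 from 30.4% of the kainate sum in cerebellum to 63.2% in cortex.

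The subunits are largely brain genes in this series. Over 18 libraries each, Grik5 had medians of 15.3 CPM in atria and 8.05 in ventricles and Gria3 of 7.96 and 3.22. The medians of the other 7 members were at most 1.82 CPM, Gria2 had a median of 0 in both tissues, and Grik1 had no read in any ventricle.

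The second question is whether loss of Gnb5 changes these genes. No member passed the test in any region with edgeR, which called 0.0817% of all genes tested in cerebellum, 0.165% in hippocampus and 0.0557% in cortex. No member passed with DESeq2 either, which called 63, 110 and 35 genes in all against 14, 29 and 10 with edgeR. At an unadjusted p under 0.05 there were 0 members in cerebellum, 2 in hippocampus (Gria3 and Grik3) and 0 in cortex, where 5.85%, 7.70% and 7.39% of all genes stood at this level. Wild-type and knockout ranges overlapped for every member in every region, and the share of all genes for which this holds was not counted. The median log2 fold change of the members was -0.11 in cerebellum, 0.04 in hippocampus and -0.10 in cortex, against a median over all genes of 0.00, 0.00 and 0.01. The cerebellar and cortical medians include the libraries that stood apart. With them the members ran from -0.32 to 0.02 in cerebellum and from -0.48 to 0.06 in cortex. Without them they ran from -0.18 (Gria2) to 0.16 (Grik4) in cerebellum. In cortex they then ran from -0.09 (Grik3) to 0.14 (Gria4), so that values lay on both sides of 0.

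In cerebellum the values that lay farthest from wild type were those of Gria2 and Grik2. Gria2 read 272, 596 and 691 CPM in the knockout against 655, 697 and 726 in wild type, and no knockout library reached the wild-type mean. Grik2 read 68.2, 147 and 166 CPM against 157, 170.2 and 176, again with 0 of 6 above the wild-type mean. The log2 fold changes were -0.32 (interval -0.68 to 0.04) for Gria2 and -0.29 (interval -0.64 to 0.05) for Grik2, each with adjusted p = 0.583 by edgeR. A two-sided exact permutation test over the 924 ways to divide 12 mice gave unadjusted p of 0.0108 and 0.00866. By that test 13.1% of all genes tested in cerebellum had an unadjusted p under 0.05.

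Without knockout cerebellum replicate 2 the Gria2 change was smaller but its interval narrower, -0.18 (-0.33 to -0.04, unadjusted p = 0.0160, adjusted p = 0.316), with 0 of 5 knockout mice above the wild-type mean. Grik2 read -0.16 (-0.26 to -0.06, unadjusted p = 0.00445, adjusted p = 0.243), also with 0 of 5. Neither passed over all genes tested, and the interval allows a fall of Gria2 of up to 0.33 on the log2 scale. In a fit of all 12 libraries with the outside-gene share as a covariate, Gria2 and Grik2 came to -0.04 and -0.03 (edgeR, adjusted p = 0.731 and 0.861). The share itself ran from 16.1 to 16.97% in wild type and from 8.02 to 16.6% in the knockout. The covariate and the genotype can therefore not be fully told apart in that fit. Replicate 2 also set the low end of the other members, such as Gria4 at 393 CPM when the other 5 knockout libraries held 638 to 693. In cerebellum the knockout to wild-type ratio of summed markers was 1.23 for interneurons (unadjusted exact permutation p = 0.0195), 1.14 for Bergmann glia (p = 0.0173) and 0.857 for oligodendrocyte precursors (p = 0.0260). Without replicate 2 these ratios were 1.05 (p = 0.0346), 1.06 (p = 0.0281) and 0.904 (p = 0.0519), again by the exact permutation test. With all libraries every other list had p above 0.05 by this test. The genes of the interneuron list differed: Pvalb had a mean of 597 CPM against 362 and Gad1 of 763 against 707, but Gad2 of 166 against 175. The part of these shifts and of the outside-gene share in the subunit values was not tested.

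In hippocampus, where no library had a low share of reads outside genes, the log2 fold changes of the members lay between -0.20 and 0.09. Gria3 read 267, 278 and 301 CPM in the knockout against 244, 263 and 278 in wild type, higher than the wild-type mean in 6 of 6 mice (log2 fold change 0.09, interval 0.00 to 0.17, adjusted p = 0.642). Grik5 read 247, 258 and 289 CPM against 231, 245 and 259, also with 6 of 6 above (0.09, interval -0.00 to 0.18, adjusted p = 0.651). Grik3 read 54.8, 72.4 and 80.9 CPM against 73.7, 78.8 and 87.6 (-0.20, interval -0.39 to -0.01, adjusted p = 0.625). Gria1, Gria2 and Grik2 had intervals within -0.06 and 0.19, whereas Grik1 was the least bounded (-0.06, interval -0.33 to 0.22). Summed markers of hippocampal principal cells stood at 1.15 times wild type (unadjusted exact permutation p = 0.0173), astrocytes at 1.16 (p = 0.0216) and interneurons at 0.871 (p = 0.0152). By this test every other list had p above 0.05. Of the principal cell markers, Wfs1 (mean 187 against 137 CPM) and Prox1 (158 against 138) were higher. Fibcd1 (184 against 183) and Spink8 (16.8 against 16.5) were about level. Of the astrocyte markers, Gfap (378 against 315) and Aqp4 (191 against 165) were higher and Aldh1l1 was not (47.1 against 49.9). Of the interneuron markers, Gad1 (361 against 398), Gad2 (157 against 168) and Sst (88.3 against 135) were lower. Pvalb (20.4 against 20.9) was about level and Vip (16.9 against 15.2) was higher. The choroid plexus list stood at 0.236 times wild type (unadjusted exact permutation p = 0.275), with 554 and 1550 CPM in wild-type replicates 3 and 5 against 33.3 to 95.2 in the other 4 wild-type hippocampi. Without those 2 libraries no member was called either, and the log2 fold changes were 0.07 for Gria3, 0.07 for Grik5 and -0.26 for Grik3 (interval -0.48 to -0.04, adjusted p = 0.811). The part of the marker shifts in these values was not tested.

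In cortex Grik3 had the widest interval. It read 17.1, 114 and 124.8 CPM in the knockout against 109, 124 and 151 in wild type, and 0 of 6 knockout mice lay above the wild-type mean (log2 fold change -0.48, interval -1.24 to 0.27, adjusted p = 0.493, unadjusted exact permutation p = 0.0866). The 17.1 CPM value belongs to replicate 3, the library with the lowest share of reads outside genes. Without both cortical libraries that stood apart, the Grik3 difference was -0.09 (interval -0.25 to 0.06). Gria2 went from -0.19 (interval -0.52 to 0.14) to -0.00 in the same step. Gria4 then read 0.14 (interval 0.03 to 0.26, adjusted p = 0.979, 4 of 4 knockout mice above the wild-type mean), a difference that did not pass over all genes. The Bergmann glia list stood at 1.17 times wild type in cortex (unadjusted exact permutation p = 0.0368), and at 1.05 times without both libraries (p = 0.186). Of its genes, Sept4 (mean 160 against 137 CPM) and Hopx (29.2 against 22.6) were higher and Gdf10 (6.48 against 7.06) was not. Gdf10 stood at 173 CPM in wild-type cerebellum, and in cortex the ratio is given for these genes and not for that cell type. With all libraries every other list had p above 0.05 in cortex by the exact permutation test.

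**Figure D5:**
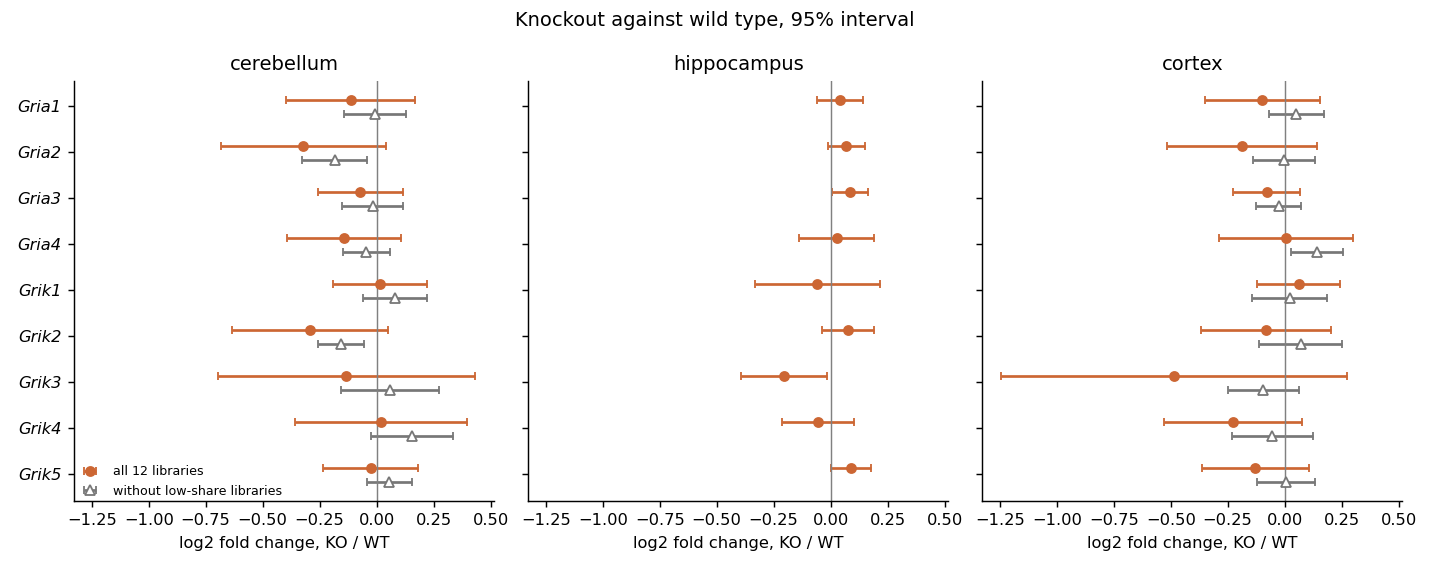
Log2 fold change of knockout against wild type for each member and region with 95% intervals, from all 12 libraries (circles) and, in cerebellum and cortex, without the libraries with under 10% of reads outside genes (open triangles). All circles lie between -0.48 and 0.09, the intervals narrow without those libraries, and Gria2 and Grik2 in cerebellum stay below 0 at -0.18 and -0.16.

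The composition of the families in the knockout is given as a description. In hippocampus Gria1 made 66.5% of the AMPA sum and Grik5 61.6% of the kainate sum. In cerebellum the AMPA sum was 248 ± 48.4 RPKM and the kainate sum 44.1 ± 10.3, with Gria4 at 39.8% and Grik5 at 33.2% of them. The wide SDs there and in knockout cortex (161 ± 33.5 and 64.7 ± 15.4 RPKM) include the libraries that stood apart. Without them the sums were 268 ± 10.8 and 48.3 ± 1.84 RPKM in cerebellum (n = 5) and 181 ± 6.74 and 74.4 ± 3.27 in cortex (n = 4), with Gria4 at 39.6% and Grik5 at 31.4% in cerebellum. In hippocampus the knockout sums were 355 ± 20.6 and 82.4 ± 3.42.

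The same region tests were read in the knockout. Of the 9 members, 7 differed between cerebellum and cortex, 7 between cerebellum and hippocampus and 6 between hippocampus and cortex, where 61.7%, 61.5% and 33.5% of all genes were called. Without the 3 libraries that stood apart these counts were 7, 9 and 7. Calls over all genes rose in the same step, from 11967 to 14633, from 11924 to 15329 and from 6486 to 9355. Gria4 was again higher in cerebellum than in hippocampus (log2 fold change 2.88) and Grik4 lower (-1.99). The difference of the knockout effect between regions was tested directly, and edgeR called 0 of 9 members for each of the 3 pairs of regions, as did DESeq2. Of all genes 0.0103%, 0% and 0.0258% were called (cerebellum minus cortex, hippocampus minus cortex and cerebellum minus hippocampus). With all libraries the only member with an unadjusted p under 0.05 was Grik2, with a knockout effect lower in cerebellum than in hippocampus by -0.40 (interval -0.78 to -0.02, unadjusted p = 0.0400, adjusted p = 0.884). In that comparison 721 of all 19388 genes stood at this level. For cerebellum minus cortex 721 genes did, and for hippocampus minus cortex 857. Without the 3 libraries that stood apart the Grik2 value was -0.25 (interval -0.41 to -0.09, adjusted p = 0.290), and that of Gria2 in the same comparison -0.27 (interval -0.41 to -0.12, adjusted p = 0.177). Grik4 went the other way there, at 0.26 (interval 0.04 to 0.48, adjusted p = 0.440). For cerebellum minus cortex, Grik2 then stood at -0.24, Gria2 at -0.18 and Grik4 at 0.30 (adjusted p = 0.328, 0.401 and 0.384). All of these are edgeR values, and none passed over all genes tested.

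The subunits work with auxiliary proteins, and 34 of their genes were taken as lists: 13 AMPA auxiliary subunits, 2 kainate auxiliary subunits, 17 genes of assembly, trafficking, anchoring and editing, and 2 other genes. All 34 were tested. Between wild-type cerebellum and cortex 12 were higher and 18 lower in cerebellum, between cerebellum and hippocampus 13 and 16, and between hippocampus and cortex 10 were higher and 13 lower in hippocampus. Of all genes, 30% and 33.1%, 29.7% and 32.1%, and 13% and 14.2% were called in the same directions. All 13 AMPA auxiliary genes differed between cerebellum and cortex, 5 higher and 8 lower, where 63.1% of all genes did.

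Neto1 and Neto2, the auxiliary subunits of kainate receptors, went opposite ways. Neto1 had a mean of 1.499 CPM in wild-type cerebellum, 124 in hippocampus and 65.9 in cortex (cerebellum against hippocampus, log2 fold change -6.37, SE 0.14, adjusted p = 2.22e-21). Neto2 had 158, 62.3 and 79.97 CPM (1.35 in the same comparison, SE 0.09, adjusted p = 2.94e-12).

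Of the AMPA auxiliary genes, Cnih3, a cornichon that slows the deactivation of AMPA receptors, was at 2.37 CPM in wild-type cerebellum and at 63.6 and 63.7 in hippocampus and cortex (cerebellum against cortex -4.76, SE 0.14, adjusted p = 7.85e-19). Shisa6 was at 295 and 281 CPM in cerebellum and hippocampus but at 25.6 in cortex (3.52 and 3.44 against cortex, adjusted p = 9.51e-11 and 1.27e-09). Shisa8 was highest in cerebellum, at 16.1 CPM against 0.486 in hippocampus (5.05, adjusted p = 2.10e-14). Gsg1l, which reduces AMPA currents, was lower in hippocampus than in cortex (27.1 against 95.7 CPM, -1.84, adjusted p = 7.49e-12).

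Among the genes of assembly and anchoring, Nptx2, a secreted pentraxin that clusters AMPA receptors, had 0.705 CPM in wild-type cerebellum, 17.04 in hippocampus and 57.4 in cortex (cerebellum against cortex -6.35, SE 0.27, adjusted p = 5.19e-16). Its relative Nptx1 was at 791 CPM in hippocampus and 346 in cortex (1.18, adjusted p = 5.56e-09). Porcn, whose protein is found in AMPA receptor complexes, was at 183 CPM in cerebellum, 87.0 in hippocampus and 69.4 in cortex.

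Between the genotypes no gene of these lists passed with edgeR in any region. At an unadjusted p under 0.05 there were 2 in cerebellum, 4 in hippocampus and 1 in cortex of the 34, beside 5.85%, 7.70% and 7.39% of all genes, and the lowest adjusted p was 0.312, for Neto1 in hippocampus (log2 fold change 0.19). No gene of the lists was called for a difference of the knockout effect between regions.

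Across the 36 libraries, which share mice and fall into 3 regions, the profile most like that of each member was sought among 13660 genes by Pearson's r of log2 CPM, as a description. Gria4 was closest to Rcan3 and Grm4 (both 0.995), Grik5 to Rimbp2 and Camk2a (both 0.996), Gria1 to Galnt17 (0.987) and Gm2115 (0.983), and Grik4 to Nt5dc3 (0.983) and Thsd4 (0.982). Gria3 was closest to Ttpal (0.986) and Flrt2 (0.985), and Gria2 to Rrm2b (0.974) and Chrna7 (0.973). The kainate genes Grik1 (Syt9 0.958, Tmem132c 0.945), Grik2 (Ubr1 0.975, Scaf11 0.966) and Grik3 (Rap1gap 0.964, Myo16 0.960) had less close neighbours. Within the members, Gria3 and Grik5 were most alike (0.962) and Gria4 and Grik5 most opposed (-0.933).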

How the data were processed

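Per the submitters' processing notes, reads were trimmed with cutadapt 1.8, aligned to GRCm38 with STAR 2.5.3a and counted per gene with HTSeq 0.9.1. The authors deposited whole-number counts per gene from TruSeq stranded total RNA libraries, which was the unit used. The 5 rows of reads outside genes were left out of library totals. Reads in no gene made 6.86 to 16.97% (median 13.9%) in brain. Of the 53715 identifiers, 53620 matched GENCODE M21 and 95 did not, which gave symbols and exon lengths.

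Counts were scaled with TMM factors and tested in edgeR 4.0.16 (R 4.3.3, glmQLFit and glmQLFTest, filterByExpr with a minimum of 10, prior count 2 for log2 CPM), with Benjamini-Hochberg adjustment over all genes and a threshold of 0.05. Genotype fits used the 12 libraries of a region without a block. Region and interaction fits used the 36 libraries with the mouse as a block, since the same mouse number in the titles marks 1 animal. Libraries of the same mouse correlated in their deviations at r above 0.1 in 30 of 36 pairs. This held for 6 of 6 pairs in each wild-type comparison of regions and in knockout cerebellum against hippocampus. It held for 3 of 6 in knockout cerebellum against cortex (r from -0.746 to 0.780) and 3 of 6 in knockout hippocampus against cortex. Replicates are separate mice. The smallest exact permutation p with 924 divisions is 0.00216. DESeq2 1.42.0, RLE factors, other count filters, a replicate block, other lengths and each mouse left out were alternatives. Leaving out the 3 libraries under 10%, leaving out the 2 hippocampi high in choroid plexus markers and the covariate were chosen after seeing the data. In simulated counts with log2 changes of 1 or 2 and a common spread, all 200 changed genes of each fit were recovered. Changes as small as those of the members between genotypes, and libraries that stand apart, were not simulated.

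The members and lists were chosen with earlier results of these data known. Named are all members, Gnb5, pathway genes called between genotypes, the pathway gene of largest change per list, direction and region comparison, and the 2 protein-coding genes of highest r per member with a mean CPM of at least 1. A list of 2 genes enters the counts over all lists, and its own results are not reported here.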

Additional observations from a re-analysis of the deposited data

Results flagged for a closer look

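Of the 66 groups of 6 values examined (the members, Gnb5 and the share of reads outside genes), 9 held a value far from the other 5 by Dixon's criterion, where chance gives about 1 in 20 groups, or 3.3. In knockout cerebellum replicate 2, 6 values stood apart as the lowest. They were Gria1 at 359 CPM (others 569.8 to 686), Gria4 at 393 (638 to 693), Grik2 at 68.2 (142 to 166), Grik4 at 9.42 (18.4 to 23.5), Grik5 at 50.9 (75.3 to 81.1) and the share of reads outside genes at 8.02% (14.02 to 16.6). In knockout cortex replicate 3, Gria4 was lowest at 69.2 CPM (others 128 to 154). Gria3 was highest in wild-type cerebellum replicate 2, at 187 CPM (152 to 165), and in wild-type cortex replicate 5, at 328 CPM (291 to 300.4).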

How the results depend on the processing

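No called result changed direction. Members called between genotypes numbered 0 in each region under DESeq2, RLE factors, both count filters, a replicate block (numbers that join different mice of the genotypes, r -0.295 to 0.0947 over 18 pairs, 0 of them best with their own number), the covariate and each library left out (0 to 0). By the exact permutation test at unadjusted p under 0.05 there were 2 in cerebellum and 1 in hippocampus, where 13.1% and 7.78% of all genes tested reached it. Members called between wild-type hippocampus and cortex fell from 5 to 3 with no filter on low counts, which tests more genes, and ran from 3 (without wild-type replicate 3) to 7 (without knockout replicate 2) with a mouse left out, and came to 7 without the 3 libraries under 10% outside genes. Cerebellum against cortex ran from 6 to 8 and cerebellum against hippocampus from 8 to 9. With the mouse block left out of the region fits the counts stayed at 7 (cerebellum against cortex), 5 (hippocampus against cortex) and 8 (cerebellum against hippocampus). Of 54 levels, 38 moved by over 1 SD with the longest transcript's length and 2 with library totals alone.

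Counts over all genes between genotypes moved by more. Cerebellum went from 14 to 63 with DESeq2, 5 with the replicate block, 39 with the covariate and 62 without knockout replicate 2 (9 to 62 with a library left out). Hippocampus went from 29 to 110 with DESeq2, 19 with the block and 16 without the 2 hippocampi high in choroid plexus markers (21 to 37). Cortex went from 10 to 35 with DESeq2, 6 with the block, 6 with a minimum of 10 in every library and 26 without its 2 low libraries (8 to 22). Interaction calls went from 7 to 32 with DESeq2 and 36 without the 3 libraries (3 to 9), and wild-type hippocampus against cortex from 5272 to 10688 without them. Each member had at least 388 counts in every brain library.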
